A study of Mus musculus with 6 samples.

Results

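The genes described here encode proteins of the specific (secondary) granules of neutrophils. They were chosen by name, and all 10 (Ltf, Camp, Ngp, Lcn2, Chil3, Chil1, Olfm4, Hp, Pglyrp1 and Ltb4r2) were found by symbol among the 52636 genes of the deposited expression table. Ltb4r2 encodes a leukotriene B4 receptor at the cell surface and is no granule protein, but it belongs to the list as given. The study sequenced RNA of neutrophils from the bone marrow of C57BL/6N mice, 10 weeks old, in 3 libraries labelled WT and 3 with the genotype LRP5f/f/Lyz2Cre+, called LRP5-null here. In the latter, floxed Lrp5 alleles are combined with Cre expressed from the Lyz2 locus, which is active in neutrophils but also in monocytes and macrophages, and the labels name no Cre for the WT mice. Values are TPM, a measure of transcript abundance corrected for transcript length and scaled to the same total in every library, so levels of different genes can be compared within a library. Whether each library came from a separate mouse is not stated in the labels, and p-values then measure only the spread between these libraries.

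Neutrophils make their granule proteins in waves during maturation in the marrow. Genes of specific granule proteins are transcribed mainly in myelocytes and metamyelocytes, under the transcription factor C/EBPε, and the proteins are stored until the cell degranulates. Several of these proteins limit bacterial growth by withholding iron or by damaging membranes.

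Lrp5 was at 1.12, 1.31 and 1.42 TPM in the libraries labelled WT and at 1.68, 1.77 and 2.07 TPM in those labelled LRP5-null (limma adjusted p = 0.136). The gene targeted by the knockout thus stood above WT rather than below it, and the directions given here rest on the labels. Lyz2, the locus that holds Cre in the LRP5-null genotype, was lower in the libraries so labelled. Its means were 25963 TPM in WT and 13792 TPM in LRP5-null (limma adjusted p = 0.00351). All 9 markers used to check the cell type (Ly6g, S100a8, S100a9, Csf3r, Cxcr2, Mmp8, Retnlg, Cd177 and Itgam) passed the filter on low values. WT replicates 1 and 2 stood apart from the other libraries. Ribosomal RNA took 1.20% and 1.30% of their reads against 2.69% to 3.30% in WT replicate 3 and the libraries labelled LRP5-null. Their deviations from the mean of all libraries fell with the GC content of transcripts (Spearman correlation −0.61 and −0.43 over 8769 genes, against 0.33 to 0.44 in the other 4 libraries). Other measures of the reads separated the labels without overlap. Intronic reads took 7.78% to 9.0% in WT and 10.62% to 11.23% in LRP5-null. Coding and untranslated regions took 83.84% to 87.03% and 81.85% to 82.41%. The part of these differences in the values below was not tested.

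The specific granule genes made up a large part of the RNA of these cells. Together they took 7.96%, 7.94% and 8.68% of all TPM in the libraries labelled WT and 8.21%, 8.26% and 8.57% in those labelled LRP5-null, and the groups overlapped. Without Ngp, the most abundant, the shares were 4.24%, 4.51% and 4.88% against 5.08%, 4.96% and 5.07%, without overlap. This share was not planned, and the gene it leaves out had a fitted difference below 0. Without Ngp and Camp, a choice made after the data were seen, the shares of the other 8 genes overlapped, at 2.96%, 3.08% and 3.45% against 3.26%, 3.18% and 3.38%. By mean TPM, 7 of the 10 were among the 30 most abundant genes of the table. Ngp ranked 3, Camp 6, Lcn2 8, Ltf 10, Chil3 13, Pglyrp1 22 and Hp 26. Chil1 ranked 81 and Olfm4 153. Ltb4r2 was the exception, with at most 0.185 TPM in any library, and it did not pass the filter of a mean of at least 1 TPM.

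Between genotypes, none of these genes passed the threshold. Of the 9 that passed the filter, 0 had an adjusted p under 0.05 (limma over 9775 genes, Benjamini-Hochberg adjustment), where the share called among all genes tested was 0.532%. At an unadjusted p under 0.05 there was 1, Camp, where the share over all genes was 23.5%. The median of their log2 fold changes was 0.05 (−0.03 with median-ratio scaling) and that of all genes tested 0.04 (−0.02 with that scaling). The value was above 0 for 5 of the 9, where 58.8% of all genes were above 0. The 95% interval of the log2 fold change lay within 0.5 of 0 for 8 of the 9 genes, and that of Camp ended at 0.503. The bound of 0.5 was not planned, and no share over all genes stands beside this count. In 2 of the 9 genes, Camp and Chil3, all libraries labelled LRP5-null were above all libraries labelled WT, and over all genes 17.4% were separated in this direction. In bulk RNA, fewer cells that express a gene and less of its RNA per cell cannot be told apart.

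**Figure D1:**
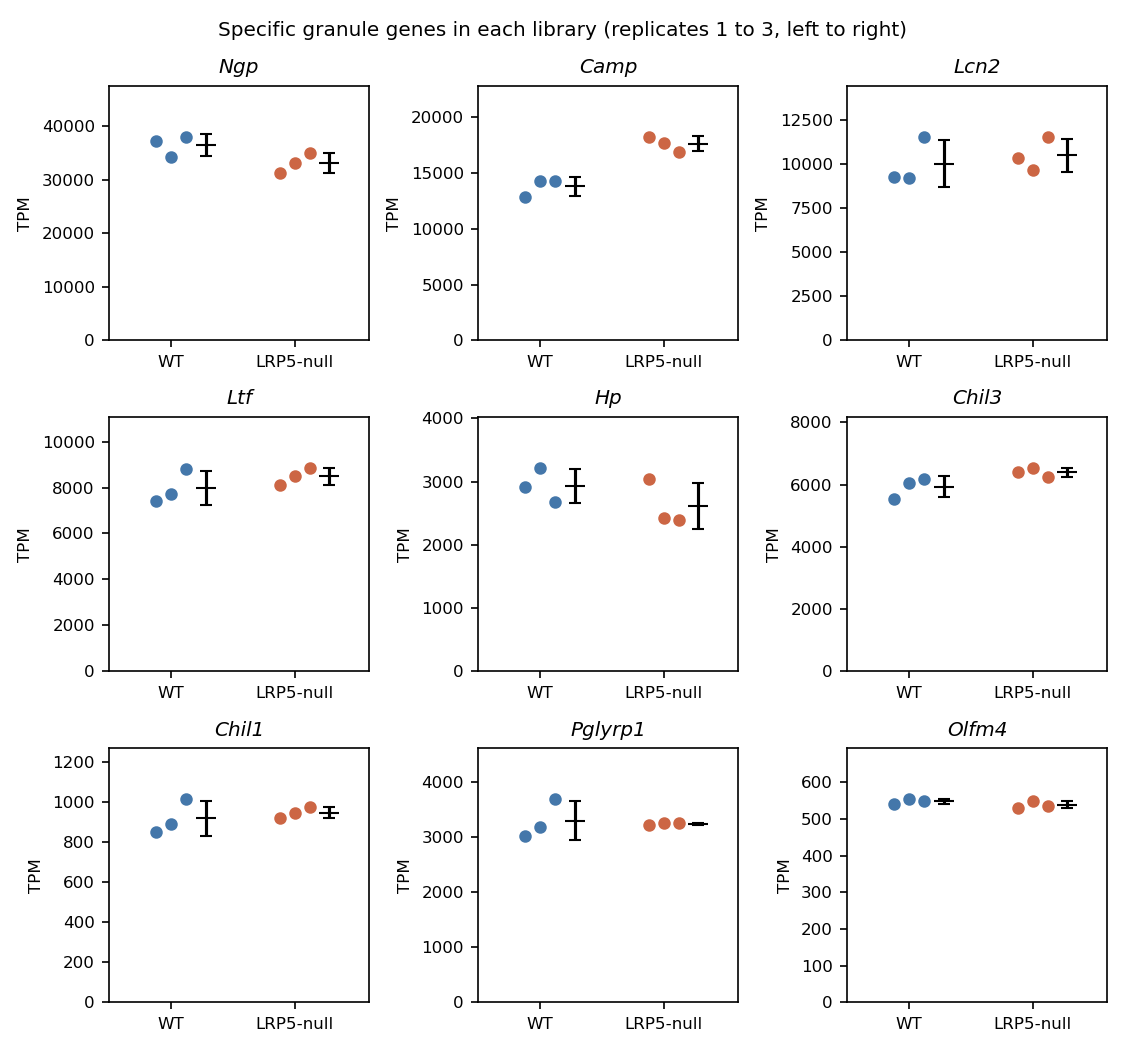
TPM of the 9 specific granule genes that passed the filter, with a point for each library and the mean ± SD (n = 3) beside the points. Vertical axes start at 0 and differ between genes, and only for Camp and Chil3 do all points labelled LRP5-null lie above all points labelled WT.

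Camp and Ngp encode proteins that share a cathelin-like domain. Camp is the precursor of CRAMP, the cathelicidin antimicrobial peptide of the mouse, and Ngp is neutrophilic granule protein. The pair were the most abundant of the list and lie on chromosome 9 (NCBIM37, the mm9 assembly), Camp at chr9:109749889-109751970 on the minus strand and Ngp at chr9:110322254-110325514 on the plus strand, 570 kb apart. Ltf, at chr9:110921796-110945270 on the plus strand, follows 596 kb after Ngp. Of the other genes between Camp and Ltf, 12 were tested and 0 called by limma, with log2 fold changes from −0.12 to 0.41 and a mean of at most 121 TPM. The 250 bases before the start of transcription of these neighbouring members are shown because C/EBP factors are the best known regulators of such genes. The fitted differences of Camp and Ngp had opposite signs, but neither gene was called. A link of these differences to the sequences was not tested. The sequences are from RefSeq (GRCm38.p6), 5′ to 3′ on the strand of the gene, at chr9:109849457-109849706 for Camp, chr9:110419558-110419807 for Ngp and chr9:111019042-111019291 for Ltf. Capitals mark matches to TTGCNNAA on either strand, a short form of the C/EBP motif.
Camp: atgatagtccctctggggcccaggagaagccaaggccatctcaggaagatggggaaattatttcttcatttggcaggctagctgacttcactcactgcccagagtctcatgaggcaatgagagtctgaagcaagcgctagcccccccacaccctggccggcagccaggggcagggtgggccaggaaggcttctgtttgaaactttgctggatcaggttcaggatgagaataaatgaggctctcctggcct
Ngp: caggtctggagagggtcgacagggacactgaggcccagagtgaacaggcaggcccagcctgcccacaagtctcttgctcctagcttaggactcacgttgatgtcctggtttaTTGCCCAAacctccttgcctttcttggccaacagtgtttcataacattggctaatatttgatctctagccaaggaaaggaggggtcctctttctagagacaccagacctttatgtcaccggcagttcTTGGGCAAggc
Ltf: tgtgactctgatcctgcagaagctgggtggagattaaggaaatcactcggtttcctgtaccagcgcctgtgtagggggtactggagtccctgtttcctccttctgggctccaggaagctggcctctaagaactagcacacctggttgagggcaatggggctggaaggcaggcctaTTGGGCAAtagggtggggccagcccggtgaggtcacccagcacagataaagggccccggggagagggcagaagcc

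The Ngp stretch held 2 matches, which begin 138 and 11 bases before the start, the Ltf stretch 1 at 75 bases and the Camp stretch 0. Of the 8 members with a promoter in the RefSeq table, 3 held a match (Ngp, Ltf and Lcn2, the last at 216 bases), or 37.5%, against 9.56% of all 32851 promoters cut to the same length. A match to letters is a description of the sequence and does not show that a factor binds there.

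Camp had the largest fitted difference of the list when no trend was removed. It was at 12832, 14306 and 14302 TPM in the libraries labelled WT and at 18244, 17719 and 16896 TPM in those labelled LRP5-null. The groups did not overlap, and the lowest library labelled LRP5-null stood above the highest labelled WT. The means were 13813 ± 850 and 17620 ± 679 TPM (SD, n = 3 each), 27.6% higher in the libraries labelled LRP5-null. The log2 fold change was 0.35 (95% interval 0.20 to 0.50, limma adjusted p = 0.0648), just short of the threshold, and the exact permutation test gave p = 0.1, two-sided, the smallest that 3 libraries against 3 allow. Without WT replicate 3 Camp was called at 0.38 (limma adjusted p = 0.0175), in a fit that called 19.6% of all genes. Once trends with GC content and length had been removed from each library, the value was 0.19 (limma adjusted p = 0.0718), smaller in size than those of Hp (−0.29), Pglyrp1 (−0.21) and Ngp (−0.20), for which limma gave adjusted p = 0.214, 0.0565 and 0.0953.

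Ngp, the most abundant member, had a fitted difference of the opposite sign. It was at 37224, 34286 and 38041 TPM in the libraries labelled WT and at 31331, 33078 and 35078 TPM in those labelled LRP5-null. LRP5-null replicate 3 lay above WT replicate 2, so the groups overlapped. The log2 fold change was −0.14 (95% interval −0.29 to 0.01, limma adjusted p = 0.245).

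The makeup of the granule transcripts can be read without regard to a scaling factor common to all genes of a library. Trends with GC content or length remain in it. With such trends removed, the log2 fold changes of Camp and Ngp were 0.19 and −0.20, against 0.35 and −0.14 in the main fit. The ratio of Camp to Ngp, chosen after the values had been seen, was 0.345, 0.417 and 0.376 in the libraries labelled WT and 0.582, 0.536 and 0.482 in those labelled LRP5-null, without overlap. Summed, Camp and Ngp were at 50330 ± 1890 and 50780 ± 1200 TPM (SD, n = 3 each), with overlap. Of the TPM of the 10 genes, Camp took 16.1% to 18.0% in the libraries labelled WT and 19.7% to 22.2% in those labelled LRP5-null, while Ngp took 43.2% to 46.8% and 38.1% to 40.9%. The shares of each of the other 8 genes overlapped between groups. No test was made of these ratios and shares, since their members were picked from these values or by name.

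**Figure D2:**
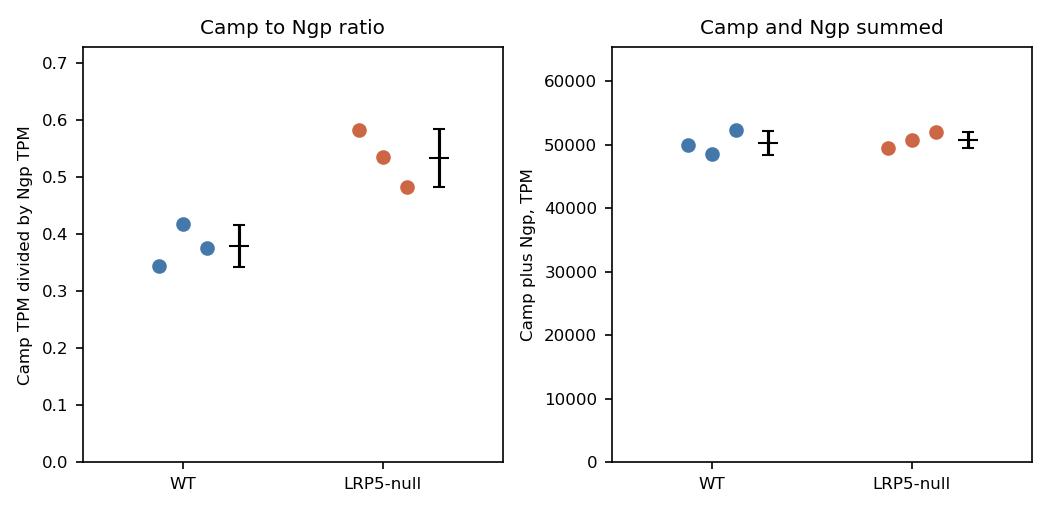
Ratio of Camp to Ngp TPM (left) and their sum in TPM (right), with a point for each library and the mean ± SD (n = 3) beside the points. The ratio is between 0.345 and 0.417 in the libraries labelled WT and between 0.482 and 0.582 in those labelled LRP5-null, whereas the sums overlap.

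**Figure D3:**
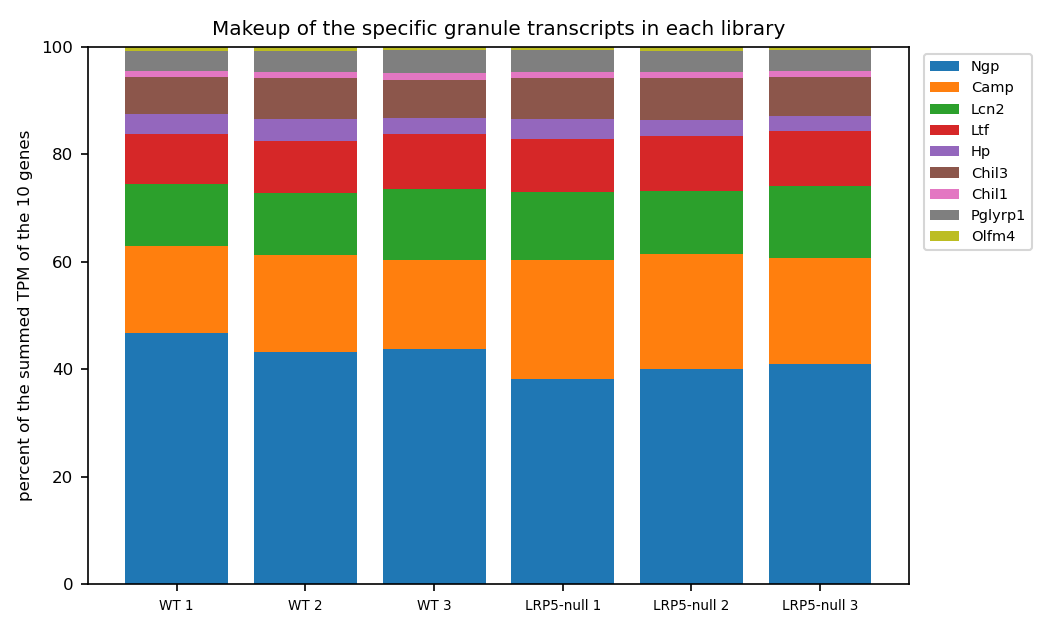
Percent of the summed TPM of the 10 genes that each gene took, for each library. Ngp and Camp fill the lower part of every bar, and Camp is between 16.1% and 18.0% in the bars labelled WT and between 19.7% and 22.2% in those labelled LRP5-null (Ltb4r2 is too low to be drawn).

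Ltf, Lcn2 and Hp encode proteins that deprive microbes of iron. Lactoferrin (Ltf) binds free iron, lipocalin 2 (Lcn2) captures bacterial siderophores and haptoglobin (Hp) binds hemoglobin. Ltf was at 7393, 7731 and 8807 TPM in the libraries labelled WT and at 8120, 8489 and 8854 TPM in those labelled LRP5-null. WT replicate 3 was close to the highest library labelled LRP5-null, and the log2 fold change was 0.09 (95% interval −0.09 to 0.27, limma adjusted p = 0.496).

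Lcn2, at chr2:32240153-32243317, was at 9282, 9190 and 11534 TPM in the libraries labelled WT and at 10335, 9629 and 11509 TPM in those labelled LRP5-null. It was highest in replicate 3 of either label and the groups overlapped (log2 fold change 0.07, 95% interval −0.18 to 0.32, limma adjusted p = 0.706). Hp, at chr8:112099030-112103072, was at 2910, 3217 and 2677 TPM in the libraries labelled WT and at 3037, 2426 and 2389 TPM in those labelled LRP5-null. LRP5-null replicate 1 lay above WT replicates 1 and 3, and the log2 fold change was −0.17 (95% interval −0.43 to 0.09, limma adjusted p = 0.384), the widest interval of the list. Summed, the 3 genes were at 20910 ± 1843 and 21600 ± 1107 TPM (SD, n = 3 each), with overlap.

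Chil3 (Ym1) and Chil1 are chitinase-like proteins, which resemble chitinases but do not cleave chitin. Chil3 was at 5553, 6042 and 6197 TPM in the libraries labelled WT and at 6402, 6539 and 6234 TPM in those labelled LRP5-null. The groups did not overlap, but WT replicate 3 and LRP5-null replicate 3 differed by less than the SD of either group. The log2 fold change was 0.11 (95% interval −0.03 to 0.25, limma adjusted p = 0.317). Chil3 has a close relative, Chil4, at 3.99 to 31.7 TPM, and the authors' quantification could have split reads between them. In the annotation used here (GENCODE M1) the model of Chil3, at chr3:105950472-106022425, also spans Chil4. Chil1, at chr1:136078753-136086758, was at 851, 893 and 1017 TPM in the libraries labelled WT and at 922, 946 and 979 TPM in those labelled LRP5-null, all of the latter within the range of the former (log2 fold change 0.05, 95% interval −0.14 to 0.23, limma adjusted p = 0.744).

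Pglyrp1, at chr7:19470039-19475787, encodes a protein that binds bacterial peptidoglycan. It was at 3015, 3188 and 3692 TPM in the libraries labelled WT and at 3220, 3248 and 3256 TPM in those labelled LRP5-null. The libraries labelled LRP5-null lay close together inside the range of those labelled WT, with a coefficient of variation of 0.582% against 10.7%. The log2 fold change was −0.02 (95% interval −0.21 to 0.17, limma adjusted p = 0.902).

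Olfm4, at chr14:80400109-80422667, encodes olfactomedin 4, a glycoprotein that marks a subset of neutrophils. It was at 542, 555 and 549 TPM in the libraries labelled WT and at 531, 550 and 537 TPM in those labelled LRP5-null, the narrowest relative range of the list (log2 fold change −0.02, 95% interval −0.15 to 0.10, limma adjusted p = 0.815). Ltb4r2, at chr14:56380761-56381843, was at 0.113, 0.0512 and 0.126 TPM and at 0.121, 0.185 and 0.101 TPM, and was not tested. Its neighbour Ltb4r1, which encodes the high-affinity leukotriene B4 receptor, was at 268 ± 48.4 TPM in the libraries labelled WT and 286 ± 4.32 TPM in those labelled LRP5-null (SD, n = 3 each, limma adjusted p = 0.628). Alox5, Alox5ap and Lta4h, whose products make leukotriene B4, had log2 fold changes of 0.19, −0.21 and 0.07 (limma adjusted p = 0.751, 0.219 and 0.686).

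**Figure D4:**
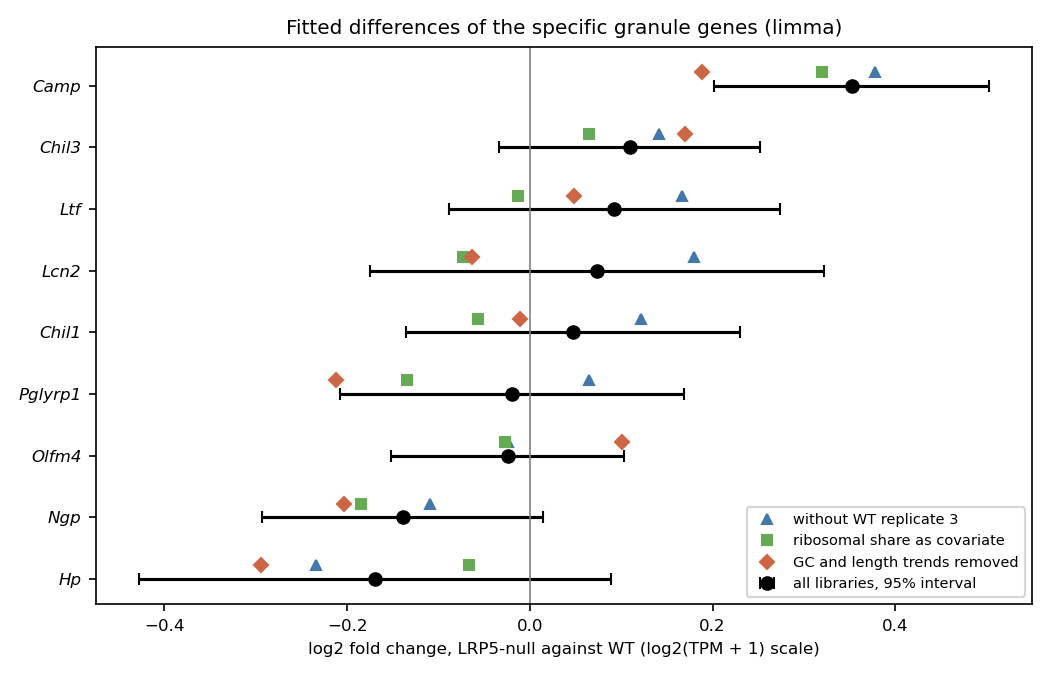
Log2 fold changes of the 9 genes tested, libraries labelled LRP5-null against WT, on the log2(TPM + 1) scale. Black points and bars are the fit over all libraries with its 95% interval, and the other symbols are fits without WT replicate 3, with a covariate for the ribosomal share, or with GC and length trends removed, in which Camp ranges from 0.19 to 0.38.

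The libraries of a label did not vary alike. For 7 of the 9 genes tested the SD was larger among the libraries labelled WT. WT replicate 3 was the highest WT library for 6 of the 9 and WT replicate 1 the lowest for 6. No share over all genes stands beside these counts, so they are not read as particular to these genes. When WT replicate 3 was left out, the median of the 9 log2 fold changes was 0.12 and that of all genes 0.07. In a fit with a covariate for the ribosomal share, the median of the 9 was −0.06 and that of all genes 0.01. Whether the ribosomal share or the GC trends of the libraries have a part in these values was not tested.

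Among the 1845 genes that averaged 50 TPM or more, the non-members whose log2(TPM + 1) was most like that of Ltf over the 6 libraries were Eif4ebp2, Hlx, Man2b1, Wwp2 and Grk6, with Pearson correlations from 0.994 to 0.997. Within the list, Chil1 was most like Ltf (0.97), whereas Ngp (0.01), Olfm4 (−0.09) and Hp (−0.75) were not. With 6 libraries and this many genes, correlations of this size are a description only, and they share the differences between libraries given above.

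Other granule genes were read in the same way, from lists drawn up from general knowledge. Counts at an unadjusted p under 0.05 (limma), here and in the lists below, stand beside a share of 23.5% over all genes. Among 13 other specific granule and granule membrane genes tested, limma called 0 (1 at an unadjusted p under 0.05), with a median log2 fold change of −0.05. The smallest p were those of Cyba, a subunit of the NADPH oxidase (0.20, limma adjusted p = 0.149), and Plaur, the urokinase receptor (0.19, limma adjusted p = 0.259). With GC and length trends removed the values were 0.0033 and 0.09 (limma adjusted p = 0.969 and 0.397), and both genes were called without WT replicate 3 (limma adjusted p = 0.0425 and 0.0342). Of 7 gelatinase granule genes, 1 was called lower (3 at an unadjusted p under 0.05, 1 higher and 2 lower). This was Lyz2, into which Cre is inserted (25963 ± 1039 and 13792 ± 375 TPM, SD, n = 3 each, log2 fold change −0.91, limma adjusted p = 0.00351). The median of the gelatinase list was −0.01. Of 8 azurophil granule genes limma called 0 (5 at an unadjusted p under 0.05), with a median of 0.27. The azurophil genes Ctsc, a protease that activates granule serine proteases, and Ms4a3, a gene of granulocyte-monocyte progenitors, had log2 fold changes of −0.46 and 0.32 (limma adjusted p = 0.0651 and 0.109), and both were called with GC and length trends removed (−0.36 and 0.51, limma adjusted p = 0.0416 and 0.0350). Ctsc was also called without WT replicate 3 (limma adjusted p = 0.0221). The azurophil list was low in these cells, with a summed level of 534 to 543 TPM in the libraries labelled WT and 500 to 505 TPM in those labelled LRP5-null, against 79408 to 86815 TPM for the specific granule genes. Most of that sum was Serpinb1a, an inhibitor of neutrophil serine proteases, at 448 to 495 TPM, and the sum and the median of the list differed in sign. Whether the lists differ in their response was not tested.

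**Figure D5:**
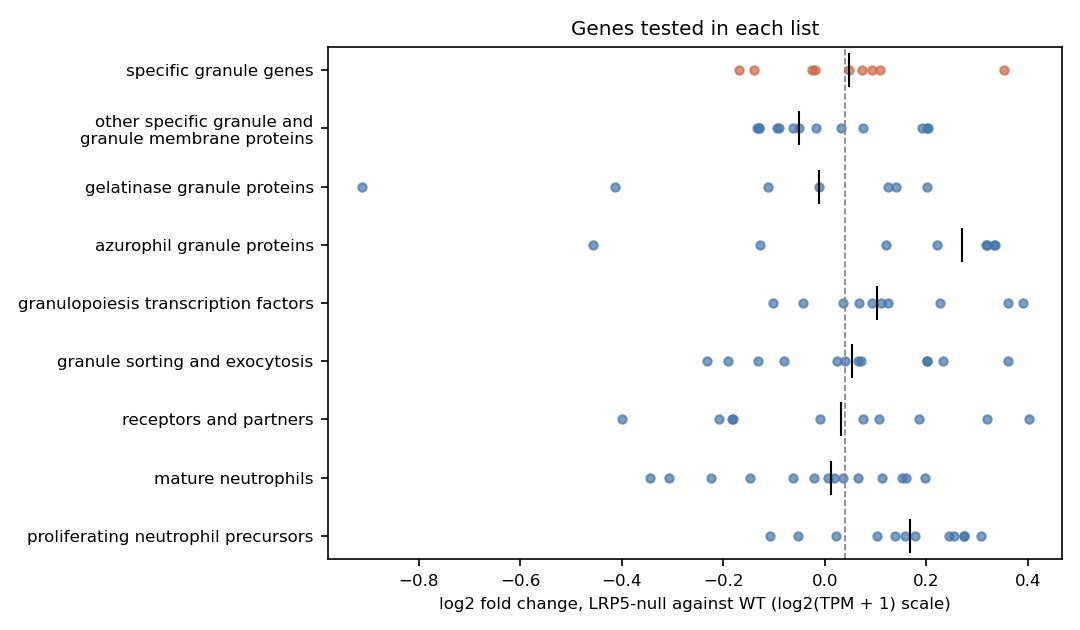
Log2 fold changes of the genes tested in each list, libraries labelled LRP5-null against WT, with a point for each gene, a bar at the median of the list and a dashed line at the median of all genes tested (0.04). The specific granule genes lie between −0.17 and 0.35 around a median of 0.05.

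Regulators, sorting genes and receptors of the granule proteins were expressed over a wide range. Of 10 transcription factor genes of granulopoiesis limma called 0 (3 at an unadjusted p under 0.05, all above 0). Cebpe, which encodes C/EBPε, was at 296 ± 25.5 and 346 ± 10.3 TPM (SD, n = 3 each, log2 fold change 0.23, limma adjusted p = 0.159), and Gfi1, a repressor required for granulocyte development, had 0.36 (limma adjusted p = 0.0892). With GC and length trends removed Cebpe was at 0.05 (limma adjusted p = 0.620), and Gfi1 was called without WT replicate 3 (0.34, limma adjusted p = 0.0360). Both were without overlap, as were 29.7% of all genes in either direction. Of 12 genes of granule sorting and exocytosis limma called 0 (4 at an unadjusted p under 0.05), with Rab27a at −0.19 and Vamp2 at 0.20 (limma adjusted p = 0.137 and 0.153). Among 10 genes for receptors and partners of the granule proteins limma called 0 as well (4 at an unadjusted p under 0.05). Fpr2, a receptor for CRAMP, was at 1197 ± 104 and 1053 ± 34.6 TPM (SD, n = 3 each, limma adjusted p = 0.205), and Trem1, a receptor for the Pglyrp1 protein, at means of 1023 and 901 TPM (log2 fold change −0.18, limma adjusted p = 0.149). Cd44 and Tmem219, which have been described as partners of the Chil1 protein, had log2 fold changes of −0.40 and 0.40 (limma adjusted p = 0.141 and 0.208). Tlr4 ranged widely within both labels, at 24.3 ± 24.5 and 25.5 ± 13.4 TPM (SD, n = 3 each), and Hmox1, which degrades heme, was at 56.7 ± 6.23 and 56.1 ± 2.64 TPM (SD, n = 3 each). The lipocalin receptor genes Slc22a17 and Lrp2 and the haptoglobin receptor gene Cd163 did not pass the filter, with at most 0.00886, 0.00408 and 0.550 TPM.

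Genes that mark stages of maturation and other cell types were measured beside these values. Of 12 genes of proliferating precursors limma called 0 (4 at an unadjusted p under 0.05), with a median log2 fold change of 0.17 and the smallest p for Birc5 (0.27, limma adjusted p = 0.119) and Mki67 (0.31, limma adjusted p = 0.140). Of 14 genes of mature neutrophils it called 0 (4 at an unadjusted p under 0.05), with a median of 0.01 and the smallest p for Fpr1 (−0.31, limma adjusted p = 0.0675). Among the 9 neutrophil markers 0 were called (2 at an unadjusted p under 0.05), with Mmp8 at −0.41 (limma adjusted p = 0.0648) and S100a9 at 0.18 (limma adjusted p = 0.114). S100a9 alone took 19.5% to 20.4% of all TPM in the libraries labelled WT and 22.2% to 23.1% in those labelled LRP5-null. The share of S100a8 went the other way, with means of 13.43% in WT and 12.03% in LRP5-null, and the groups overlapped. Lyz2 was lower as well, at means of 25963 TPM in WT and 13792 TPM in LRP5-null. TPM have the same total in every library, so all other genes shared what these genes left. The part of these shares in the values of other genes was not tested.

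Markers of other cell types were low beside those of neutrophils, which summed to 334600 to 387700 TPM. Summed levels were between 43.9 and 58.1 TPM for the erythroid list, 124 and 143 TPM for B and plasma cells, 12.1 and 17.8 TPM for T and NK cells, 148 and 173 TPM for eosinophils and 10.8 and 13.6 TPM for basophils and mast cells. Most of the eosinophil sum was Ear2, at 136 to 162 TPM, while Il5ra was at most 0.219 TPM. The monocyte and macrophage list summed to between 579 and 739 TPM, mostly from Ly6c2, while Cx3cr1 was at most 0.346 TPM. Among these lists only the T and NK cell sums did not overlap. They were 12.1 to 14.1 TPM in the libraries labelled WT and 16.1 to 17.8 TPM in those labelled LRP5-null. Most of each sum was Cd3d, at 9.33 to 10.6 TPM and 13.4 to 14.5 TPM. The other genes of that list were low and went in both directions. Means in WT and LRP5-null were 0.133 and 0.0681 TPM for Cd3e, 0.333 and 0.284 TPM for Lck and 1.23 and 1.59 TPM for Nkg7.

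Of 3 eosinophil genes tested limma called 1, Prg2, an eosinophil granule gene, at 1.02 ± 0.16 and 2.79 ± 0.41 TPM (SD, n = 3 each, log2 fold change 0.91, adjusted p = 0.0341), while Epx, eosinophil peroxidase, was at most 0.141 TPM. Prg2 was no longer called when WT replicate 1 or 2 or LRP5-null replicate 1 or 3 was left out (limma adjusted p = 0.0778, 0.0820, 0.178 and 0.165), nor with the ribosomal covariate, the replicate block or no filter on low values (limma adjusted p = 0.0843, 0.109 and 0.112). Of 10 monocyte and macrophage genes 0 were called (4 at an unadjusted p under 0.05), with C1qb at 0.44 and Adgre1 at 0.36 (limma adjusted p = 0.0648 and 0.103). Of 2 T and NK cell genes 0 were called (1 at an unadjusted p under 0.05), with Cd3d at 0.43 and Nkg7 at 0.23 (limma adjusted p = 0.0651 and 0.415). Of 4 erythroid genes 0 were called (1 at an unadjusted p under 0.05), with Hba-a1 at −0.31 and Hbb-bt at 0.19 (limma adjusted p = 0.155 and 0.596). Of 7 B and plasma cell genes 0 were called (0 at an unadjusted p under 0.05), with Cd79a at −0.18 and Ms4a1 at −0.19 (limma adjusted p = 0.292 and 0.302). Of 3 basophil and mast cell genes 0 were called (1 at an unadjusted p under 0.05), with Kit at 0.25 and Mcpt8 at −0.05 (limma adjusted p = 0.181 and 0.870). These values are log2 fold changes on the log2(TPM + 1) scale, and the part of these cells in the levels of Camp and the other granule genes was not tested.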

How the data were processed

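RNA of 6 neutrophil libraries was measured, 3 of each label. The authors deposited TPM per gene. The labels name mm9 and DESeq2, and the tool that gave TPM is not given in the sources used here. Purification is given as a Percoll gradient in the labels and as a sort for CD11b+ Ly6G+ cells in the study's methods, and the kit as one for mRNA in the former and for total RNA in the latter. The gene identifiers are later than mm9. A deposited summary of the alignments gives counts of reads (249841492 to 340580330 per library), the percent of reads in each class, a ratio for 5′ or 3′ bias, a score of coverage variation and insert sizes. TPM keeps no depth, so errors come only from the spread between libraries.

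Genes whose mean over the 6 libraries reached 1 TPM were tested with limma 3.58.1 (R 4.3.3), with a trend in the variance. The response was log2(TPM + 1), a scale on which low genes change less than in TPM, and p-values were adjusted over 9775 genes by the method of Benjamini and Hochberg. The fit was checked on simulated data, in which it called 51%, 90% and 99% of the genes changed by 0.5, 1 and 2 in log2. Changes between 0 and 0.5, the range of the sizes fitted for the specific granule genes, were not simulated. Exact permutation tests were two-sided. Where a symbol had several rows, the most abundant was used. GC content and length, known for 89.7% of the genes tested, came from the longest coding transcript in GENCODE M1.

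The members and lists were chosen with earlier results of these data known. All members were named, with the called genes of each other list or, if there were none, those 2 of smallest p, the receptors of members, and the 5 genes most like Ltf. Some genes that this rule names are not reported here. Ratios, summed pairs, the genes between Camp and Ltf, the leukotriene genes, Hmox1 and the motifs were chosen after the values were seen. Alternatives were another pseudocount, filter, scaling or shrinkage, each library left out, a replicate block, a covariate for the ribosomal share of reads, and GC and length trends removed.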

Additional observations from a re-analysis of the deposited data

How the results depend on the processing

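Among the specific granule genes limma called 0 under every alternative, except Camp without WT replicate 3 (a range of 0 to 1 over the libraries left out). Over all genes the count of 52 (26 higher) was 3 with no filter on low values, 29 (10 higher) with a minimum mean of 5 TPM, 83 (30 higher) with median-ratio scaling, 98 (71 higher) when TPM were rescaled without mitochondrially encoded and the 20 most abundant genes, 6 with the ribosomal share as a covariate and 424 (161 higher) with GC and length trends removed. Leaving out a library gave 2 to 1920 calls, the latter without WT replicate 3, and 18 and 3 without WT replicates 1 and 2 and 2, 15 and 2 without LRP5-null replicates 1, 2 and 3. Same-numbered libraries of the groups had correlations of deviations of 0.23, −0.0075 and 0.13, so the numbers were not taken as a pairing, and a replicate block gave 4 calls. The median log2 fold change of the 9 genes was −0.0259 with median-ratio scaling, −0.0571 with the ribosomal covariate and −0.00716 to 0.121 with a library left out. The difference in the share of all TPM, 0.156 percentage points, was 0.492 without Ngp, which was not planned. It was 0.111 without Ngp and Camp, which was chosen after the data were seen. Camp stayed above 0 (0.19 to 0.38) and Hp below 0 under the 17 alternatives, and Ngp was between −0.21 and 0. The 0 came with quantile scaling, which gives a gene of the same rank in every library the same value in each. That setting could therefore show no difference for Ngp. The sign of other members turned. With quantile scaling the log2 fold change was −0.0937 for Ltf, −0.0789 for Lcn2, −0.034 for Chil3, 0.0365 for Olfm4 and 0.0248 for Pglyrp1. With median-ratio scaling it was −0.000122 for Lcn2 and −0.0259 for Chil1, and with the rescaled TPM 0.00199 for Olfm4 and 0.0068 for Pglyrp1. With the ribosomal covariate it was −0.0127 for Ltf, −0.0735 for Lcn2, −0.0571 for Chil1 and −0.0642 for Ltb4r1, and with GC and length trends removed −0.0633 for Lcn2, −0.0108 for Chil1, 0.1 for Olfm4 and −0.0274 for Ltb4r1. With a library left out it ranged from −0.00716 to 0.121 for Chil1, −0.0818 to 0.0644 for Pglyrp1, −0.0401 to 0.321 for Hbb-bt, −0.2 to 0.0625 for Mcpt8 and −0.0345 to 0.229 for Ltb4r1. The cause of these differences was not tested. Over 40 genes named, 616 of 672 values under an alternative kept their sign and their side of the threshold, 25 values of 16 genes passed it and 8 (Lyz2 and Prg2) no longer did. The 0 of Ngp with quantile scaling is counted among the 616. Newly called were 13 genes without WT replicate 3 (among them Camp, Cyba, Plaur, Ctsc, Gfi1, Rab27a, Fpr1, Mmp8, S100a9, C1qb, Adgre1 and Cd3d), 9 with GC and length trends removed (among them Ctsc, Ms4a3, Trem1, Fpr1, Mmp8, Hba-a1, Adgre1 and Cd3d), Fpr1 and Mmp8 with median-ratio scaling and C1qb with the rescaled TPM. Lyz2 was not called with no filter (limma adjusted p = 0.123), nor was Prg2 with no filter, the ribosomal covariate, the replicate block or any of 4 libraries left out. With 3 libraries a label the exact permutation test cannot go below p = 0.1.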
